A study of Homo sapiens with 11 samples.

Results

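The sites described here are the 292 places in 3' UTRs where ZFP36L2 was enriched over input in both eCLIP replicates of the leukaemia line MOLM13 and where neither replicate of the line THP1 had an enriched peak. They were chosen by these values: each is a 3' UTR peak of MOLM13 replicate 1 that overlapped, by 1 base or more and in the same orientation, a peak of MOLM13 replicate 2 and no peak of either THP1 table. MOLM13 replicate 1 had 2914 peaks in 3' UTRs, of which 2177 were met by a peak of replicate 2. Among these 2177 reproducible sites, 1567 were met by both THP1 tables, 318 by 1 of them and 292 by none, out of 67083 peaks of all regions in the 4 tables. The 292 sites lay in 255 genes, of which 229 had 1 such site, 19 had 2 and 7 had 3 or more. Neighbouring peaks often touched, and joining sites that lay within 10 bases of each other left 269 regions.

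Both lines are established human acute myeloid leukaemia cultures of monocytic type, grown untreated in the same medium. Background knowledge of the lines is that both carry a KMT2A fusion and that MOLM13 also carries an internal tandem duplication of the receptor kinase FLT3. In each line, ZFP36L2 was immunoprecipitated from crosslinked lysate in 2 replicates, and control IgG was used in 2 more. There were 2 size-matched input libraries for MOLM13 and 1 for THP1, which gives 11 libraries in all. The labels do not give separate cultures for the replicates, whose spread may therefore be technical. No RNA level was measured apart from these libraries, and the depth per library is unknown.

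ZFP36L2 belongs to the TIS11 family of tandem zinc finger proteins, which recognise AU-rich elements in the 3' UTRs of mRNAs and recruit the deadenylase machinery that shortens the poly(A) tail. Loss of the tail leads to decay of the mRNA, and the family is best known for limiting cytokine, cell cycle and immediate early transcripts. In blood cells the family restrains proliferation and shapes differentiation. In eCLIP, ultraviolet light links the protein to the RNA it touches, and the protein is precipitated. A pile of reads marks a cluster, which is then scored against a control and may lie below it. Each deposited peak carries a log2 fold of the immunoprecipitate over its control and a −log10 p, both computed by the authors. The tables over input keep a peak only where the log2 fold and the −log10 p both reach 3, so a site missing from a THP1 table has no deposited value over input. The lists over IgG keep every cluster found in an immunoprecipitate, also weak ones, and these lists were used to ask whether RNA at the 292 sites was captured in THP1 at all.

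Clusters lay on marker genes of the lines' type, though clusters depend on RNA level, binding and depth together. Of 12 monocytic leukaemia genes, 9 had clusters in all 4 immunoprecipitates, among them CD33, CSF1R, LYZ, SPI1 and MEIS1. MPO and ITGAM had them in some lists only, and FCGR1A had none. Summed over the 12 genes MOLM13 replicates 1 and 2 had 249 and 333 clusters, and THP1 had 132 and 136. Lymphoid, erythroid and epithelial or fibroblast markers had 0 to 6 clusters per library in sum. The IgG lists held 140287 and 182486 clusters in MOLM13 and 153162 and 143910 in THP1, and their median log2 folds were 0.28, −0.60, 0.0019 and 0.38 in the same order.

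Enrichment over input was modest at most of the 292 sites. In MOLM13 replicate 1 the log2 fold over input ranged from 3.01 to 7.02 with a median of 3.72, and in replicate 2 from 3.0 to 6.67 with a median of 3.76 (292 sites). The standard deviation of the difference between the replicates was 0.75. Taking the lower of both replicates, 162 sites (55.5%) lay below 3.5, 59 (20.2%) reached 4 and 6 (2.05%) reached 5. The median of this lower fold was 3.44 at the 292 sites, 3.49 at the sites met by 1 THP1 table and 4.15 at those met by both. The sites were 8 to 163 bases long with a median of 73.5. All but 1 lay inside the RefSeq extent of the gene that names them, at a median of 779 bases from its 3' end, and 121 (41.6%) lay within 500 bases of that end.

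**Figure D1:**
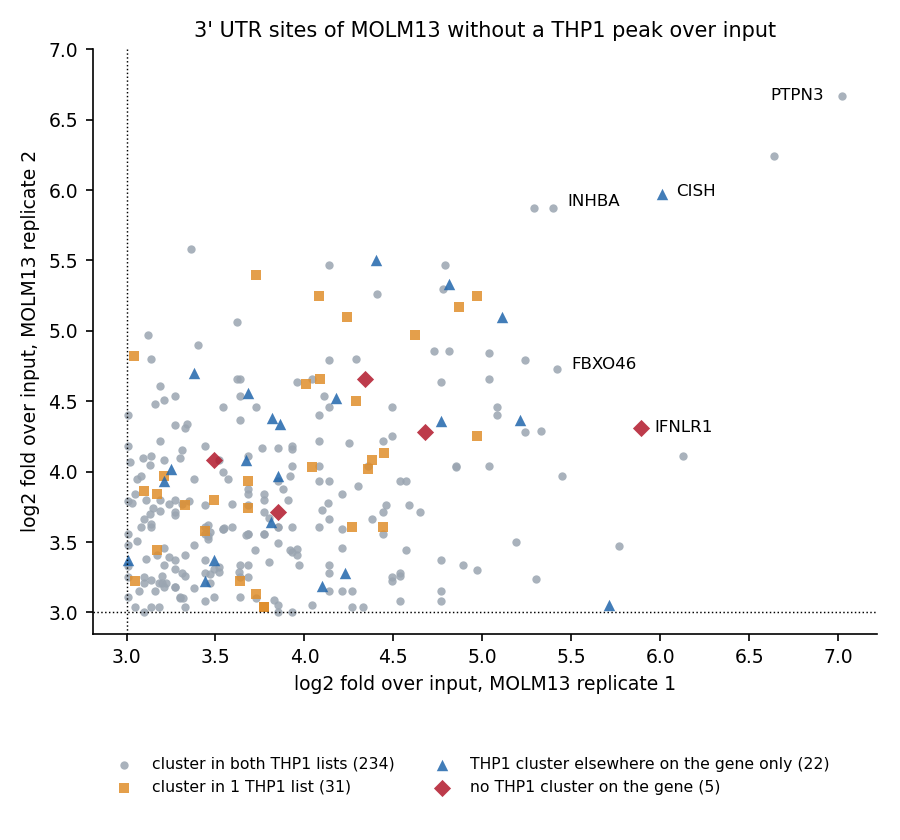
Log2 fold over input of each of the 292 sites in MOLM13 replicate 1 (x axis) and replicate 2 (y axis), with colour and shape for the class of THP1 clusters at the site; the dotted lines mark the deposited minimum of 3. Most points lie near the minimum, with PTPN3, CISH and INHBA at the upper right, and 234 of the points are grey, since a cluster was present in both THP1 lists.

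The highest site was in PTPN3, which encodes a cytosolic protein tyrosine phosphatase, at chr9:109378888-109378954 (minus strand, hg38) and 3194 bases before the end of the gene. Its log2 fold over input was 7.02 and 6.67 in the MOLM13 replicates. CISH, a feedback inhibitor of cytokine signalling through STAT5, followed with 6.01 and 5.97 at chr3:50607206-50607258. INHBA, the subunit of activin A, had 5.40 and 5.87 at chr7:41685354-41685430. LMO4, a LIM-domain cofactor of transcription, had 5.11 and 5.10, and BCL11A, a zinc finger repressor of transcription, had 4.87 and 5.17. HAGH, an enzyme of methylglyoxal detoxification, had 5.04 and 4.84. In each of these 6 genes the replicates differed by less than the standard deviation of 0.75 over the whole set. The next were ACYP1 (4.81 and 4.86), the Wnt signal transducer DVL1 (4.81 and 5.33), the mitochondrial import chaperone TIMM10 (4.79 and 5.47), MYC (5.24 and 4.79), FAM216A (4.78 and 5.30) and the F-box protein gene FBXO46 (5.42 and 4.73).

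At the other end, 3 sites passed with a lower fold of 3.0. They were in STAM, with 3.85 and 3.0 in replicates 1 and 2, in S100PBP, with 3.93 and 3.0, and in RAPGEF6, with 3.10 and 3.0. Just outside the rule were sites that shared 1 or 2 bases with a THP1 peak, in HOMER1 (1 base, 3.49 and 5.78 in MOLM13 and 5.79 in THP1 replicate 1), UBE2N (1 base, 3.02 and 3.25 against 3.04 in THP1 replicate 1) and ZMYND19 (2 bases, 3.70 and 4.72 against 4.05 in THP1 replicate 1). The edge of the set is therefore set both by the fold of 3 in MOLM13 and by a few bases of overlap in THP1.

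Most of the 292 sites were not empty in THP1. A cluster of the THP1 IgG lists overlapped 259 sites (88.7%, Wilson 95% interval 84.6 to 91.8) in replicate 1 and 240 (82.2%, 77.4 to 86.2) in replicate 2. Both THP1 lists had a cluster at 234 sites (80.1%, 75.2 to 84.3) and exactly 1 list at 31 sites (10.6%). At 22 sites (7.53%, 5.03 to 11.1) in 19 genes neither list had a cluster at the site, while the gene carried THP1 clusters elsewhere. In 5 sites (1.71%, 0.734 to 3.95) the whole gene had no THP1 cluster. The intervals cover counting error only, and peaks that touch are not independent. Of the 318 sites met by 1 THP1 table, 303 (95.3%) had a cluster in both THP1 lists. Those sites already overlap a THP1 peak, so part of that share is set by their choice. As a wider background, 48668 of the 140287 clusters of MOLM13 replicate 1, in all regions and of any strength, had a cluster in all 4 lists.

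Over IgG the same sites were lower in THP1 than in MOLM13. The median log2 fold over IgG was 3.22 and 2.84 in the MOLM13 replicates, and 1.89 (259 sites) and 2.16 (240 sites) in THP1. In THP1 replicate 1, 16 sites were below 0, 42 from 0 to below 1, 164 from 1 to below 3 and 37 at 3 or more. In replicate 2 the same bins held 7, 24, 160 and 49 sites. Most THP1 folds at the sites were thus above 0 but below 3. The deposited −log10 p was at its minimum at 41 of the 259 sites in THP1 replicate 1 and at 22 of the 240 in replicate 2. A fold above 0 alone therefore does not show enrichment over IgG. Replicates differed with a standard deviation of 1.01 in MOLM13 and 0.95 in THP1 (234 sites). Low THP1 folds came in repeated exact values. In replicate 1, 42 of 52 pairs of gene and fold below 1 (80.8%) had a fold that another gene of the set had too, and in replicate 2 it was 22 of 28 (78.6%). At folds of 3 or more it was 16 of 31 and 13 of 43. The read numbers behind the folds are unknown, so the precision of a single low fold cannot be given. At the sites met by both THP1 tables the MOLM13 medians were 3.79 and 3.73 and the THP1 medians 3.94 and 4.22. The sites were chosen on the same immunoprecipitates, so these medians describe the set and are no test of a difference between lines.

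**Figure D2:**
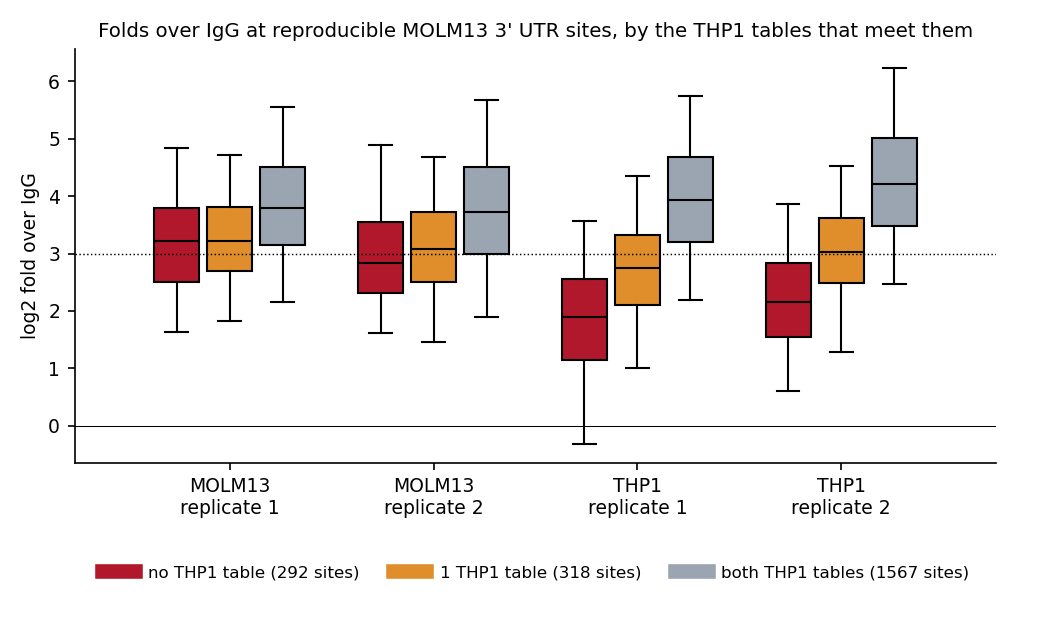
Log2 fold over IgG (y axis) in the 4 immunoprecipitates (x axis) at reproducible MOLM13 3' UTR sites met by no THP1 table, by 1 and by both; boxes span the quartiles with the median as a line, whiskers run from the 5th to the 95th percentile, and the dotted line marks 3. The sites met by no THP1 table have medians of 3.22 and 2.84 in MOLM13 and 1.89 and 2.16 in THP1, where only sites with a cluster are drawn.

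With the thresholds of the input tables applied over IgG (log2 fold and −log10 p of at least 3), 138 of the 292 sites (47.3%) were called in MOLM13 replicate 1 and 96 (32.9%) in replicate 2. Over all clusters of these lists 5.11% and 2.49% were called. Such background shares, here and for THP1, cover single clusters of every region and strength. The sites were chosen by peaks over input of the same immunoprecipitates, so nothing is read from the difference. Outside MOLM13 replicate 1, a site counted as called if any overlapping cluster was. Both MOLM13 replicates called 75 sites (25.7%, 21.0 to 31.0) and neither called 133 (45.5%). In THP1, 24 sites (8.22%, 5.59 to 11.9) were called in replicate 1 and 39 (13.4%, 9.93 to 17.7) in replicate 2, against 5.74% and 8.36% of all clusters. Both THP1 replicates called 17 sites, and 246 (84.2%) were called in neither. Among the sites met by both THP1 tables, 62.3% were called over IgG in both MOLM13 replicates. The 133 sites passed the thresholds over input in both MOLM13 replicates but over IgG in neither.

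The order of the 4 libraries was read at the 234 sites with a value in each. Both MOLM13 folds over IgG were above both THP1 folds at 128 sites (54.7%, 48.3 to 61.0), both THP1 folds were above both MOLM13 folds at 12 (5.13%), and the lines overlapped at 94 (40.2%). Over all 48668 clusters found in the 4 lists, 15.3% had both MOLM13 folds on top and 31.3% had both THP1 folds on top. The median difference, MOLM13 minus THP1, was 0.85 at the 234 sites. Since absence from the THP1 input tables chose the sites, nothing is read from these shares. With 2 libraries per line, the smallest two-sided p of an exact permutation test is 0.333, and no test was made.

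The genes with THP1 clusters at the site show the range of this weak signal. At the PTPN3 site the log2 fold over IgG was 6.77 and 7.64 in MOLM13, whereas THP1 had 1.14 and 2.38, and the lines were far apart. At the INHBA site it was 4.00 and 4.52 in MOLM13 and −0.74 and 0.70 in THP1, again without overlap. At the MYC site, in the mRNA of the growth-promoting transcription factor, it was 3.84 and 4.43 in MOLM13 and 1.92 and 2.56 in THP1. The MOLM13 values were higher in each of these genes, but only INHBA had a THP1 library below IgG.

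FBXO46 had 4.85 and 5.38 in MOLM13 against 0.54 and 1.84 in THP1, TIMM10 had 3.81 and 3.03 against 0.42 and 1.70, and ACYP1 had 3.83 and 2.51 against 1.14 and 0.70. HAGH was closer, at 3.06 and 3.49 for MOLM13 beside 2.97 and 1.55 for THP1. In these 4 genes the lines did not overlap, though at HAGH the gap between the lower MOLM13 and the higher THP1 value was small (3.06 against 2.97). FAM216A did not separate the lines. Its 3 touching sites had 3.99 to 4.39 in MOLM13 replicate 1 and 3.61 in replicate 2. In THP1 they shared the same clusters, with 4.72 and 3.87, and all 3 were called over IgG in both lines. SLC7A5, the large amino acid transporter, had 4.09 and 4.77 in MOLM13 against 4.69 and 4.06 in THP1; the lines overlapped and the site was called in all 4 lists. These sites are missing from the THP1 input tables although their THP1 fold over IgG is as high as in MOLM13.

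**Figure D3:**
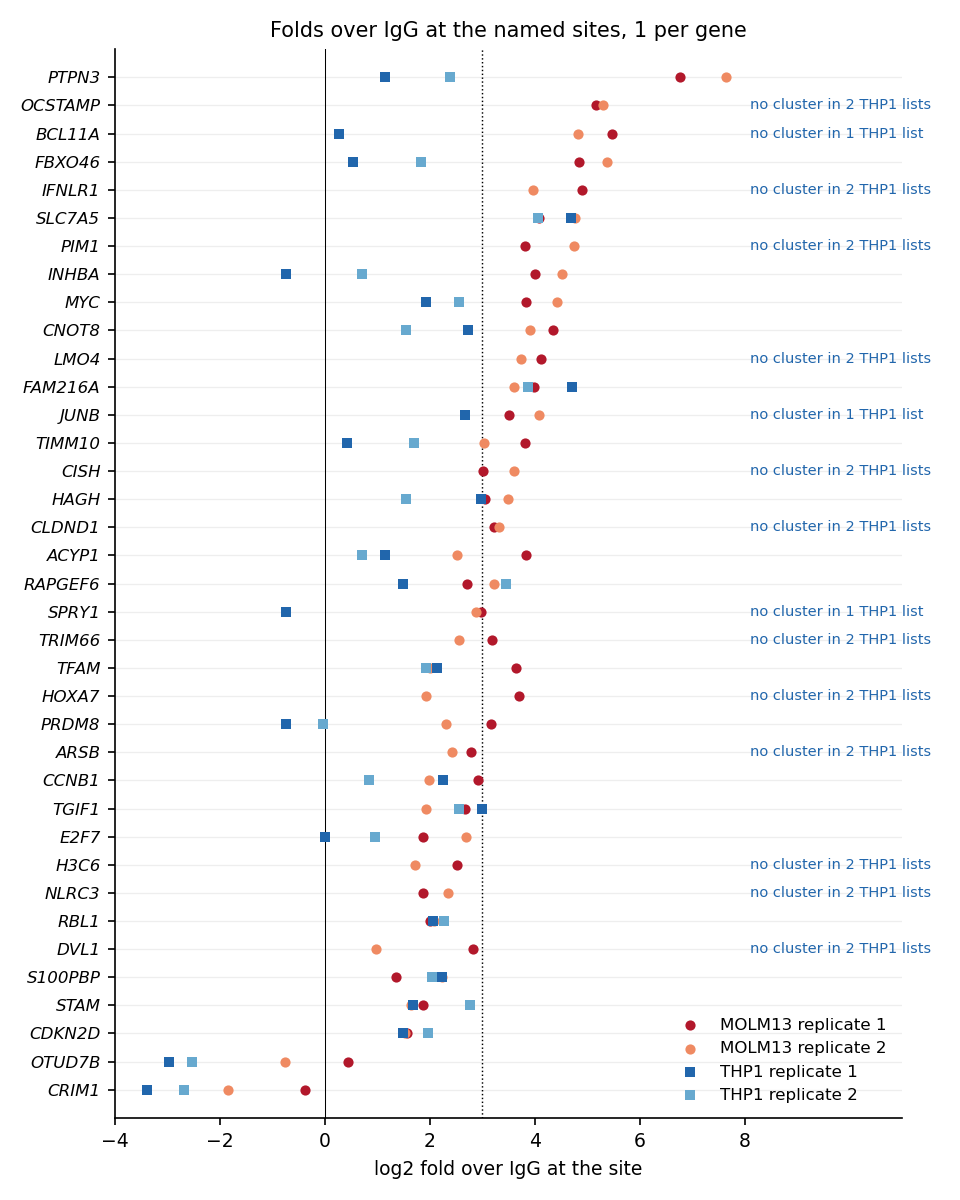
Log2 fold over IgG (x axis) at 1 named site of each gene (y axis), with circles for the MOLM13 replicates and squares for the THP1 replicates; the dotted line marks 3, and text at the right says where THP1 lists had no cluster. PTPN3 stands highest in MOLM13 with 6.77 and 7.64, SLC7A5 and FAM216A are as high in THP1 as in MOLM13, and CRIM1 is below 0 in all 4 libraries.

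Many of the 22 sites with no THP1 cluster at the site, but with THP1 clusters on the gene, lay beside THP1 peaks. A THP1 peak over input was within 100 bases of 12 of them (54.5%, 34.7 to 73.1) and within 1000 bases of 17, against 19 (8.12%) and 45 (19.2%) of the 234 sites with clusters in both THP1 lists. The gene was named by a THP1 3' UTR peak in both tables for 15 of the 22. They were short, with a median of 40.0 bases against 77.0. CISH had the highest fold over input among them, and its site had 3.02 and 3.61 over IgG in MOLM13 and no cluster in THP1, yet the gene carried 9 and 12 clusters in MOLM13 and 5 and 3 in THP1. The nearest THP1 peak over input was 56 bases away, and CISH has another 3' UTR site that both THP1 tables share. In this gene both lines had ZFP36L2 on the same 3' UTR, and the MOLM13-only label applies to a stretch of 53 bases.

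PIM1, a kinase induced by STAT5, had a site with 3.81 and 4.75 over IgG in MOLM13 and no THP1 cluster there, with the nearest THP1 peak 271 bases away. DVL1 (48 bases away), TRIM66 (20 bases) and CLDND1 (9 bases) also had a shared site in the same 3' UTR. The lysosomal sulfatase gene ARSB had its nearest THP1 peak 338 bases away, with 27 and 43 clusters on the gene in MOLM13 and 7 and 5 in THP1. In LMO4 the THP1 peak was 86 bases away and was found in 1 THP1 table only. In CISH, PIM1, DVL1, TRIM66, CLDND1 and ARSB, both lines thus had peaks over input in the 3' UTR, and this stretch had a peak over input in MOLM13 only. Over IgG, the CISH and PIM1 sites were called in both MOLM13 replicates. TRIM66 (3.19 and 2.56) and CLDND1 (3.22 and 3.31) were called in replicate 1 only. DVL1 (2.83 and 0.97) and ARSB (2.79 and 2.42) were called in neither.

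The 5 genes without any THP1 cluster were OCSTAMP, IFNLR1, HOXA7, NLRC3 and H3C6. OCSTAMP, a membrane protein needed for fusion of osteoclast precursors, had log2 folds over IgG of 5.16 and 5.31 at chr20:46541033-46541162, with 5 and 4 clusters on the gene in the MOLM13 replicates. IFNLR1, the receptor chain specific to lambda interferons, had 4.91 and 3.96 at chr1:24154196-24154298, with 6 and 9 clusters. Both were called over IgG in both MOLM13 replicates. HOXA7, a homeobox gene of the HOXA cluster that KMT2A fusions keep active, had 3.70 and 1.92, with 4 clusters in each MOLM13 replicate. The innate immune regulator NLRC3 had 1.87 and 2.35 and the histone gene H3C6 had 2.51 and 1.72, both called in neither. Without a measure of total RNA, low RNA in THP1 and weak binding cannot be told apart in these 5 genes.

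At the level of the gene, 134 of the 255 genes (52.5%) were named by a THP1 peak over input in both tables, 58 (22.7%) by a 3' UTR peak in both, and 108 (42.4%) by none. A further 3' UTR site shared with both THP1 tables was present in 46 genes (18.0%). Clusters per gene give a coarse view of how much RNA of the gene was captured. They had medians of 10.0 and 12 for the MOLM13 replicates, beside 8 and 7 for THP1, over the 255 genes. At least 3 times as many clusters in MOLM13 as in THP1 were found in 34 of the 255 genes (13.3%), and in 11 of 999 genes (1.1%) with a site met by both THP1 tables. The opposite was found in 1 and 8 genes. Both groups of genes were chosen by the presence or absence of THP1 peaks, which sets part of this contrast, so nothing is read from it. The 46 genes with both kinds of site are in both groups. Clusters depend on RNA level, binding and depth together, and their separate parts were not tested.

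**Figure D4:**
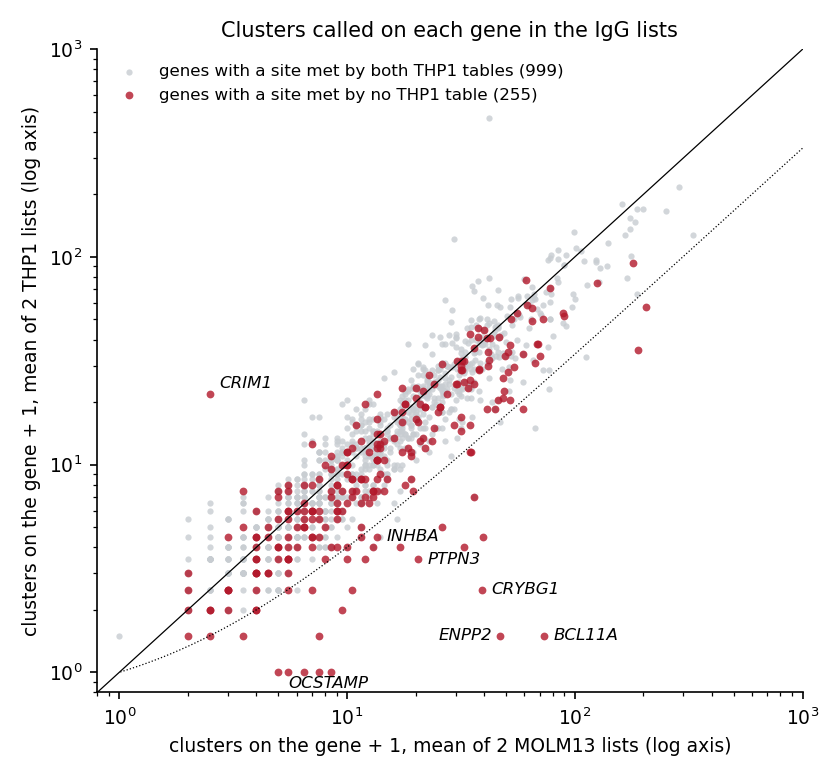
Clusters called on each gene plus 1, mean of both MOLM13 IgG lists (x axis) and of both THP1 lists (y axis), both log axes, for 255 genes with a MOLM13-only site and 999 genes with a site met by both THP1 tables; the solid line marks equal numbers and the dotted curve 3 times as many in MOLM13. BCL11A, ENPP2 and CRYBG1 lie far to the lower right, the 5 genes without THP1 clusters lie on the floor, and CRIM1 lies above the line.

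BCL11A had 74 and 71 clusters in MOLM13 and, in THP1, 1 and 0. Its 3 sites had log2 folds over input of 4.62 to 5.71 and 3.05 to 5.17 and over IgG of 3.72 to 5.47 and 2.70 to 4.82. The single THP1 cluster lay at 2 of these sites with 0.26 over IgG. ENPP2, which encodes the secreted enzyme autotaxin, had 44 and 48 clusters in MOLM13 against 0 and 1 in THP1, and CRYBG1 had 32 and 44 against 2 and 1. PTPN3 had 22 and 17 against 2 and 3, and INHBA had 11 and 14 against 4 and 3. In each of these genes THP1 clusters were few along the whole gene, not only at the sites, and the lines did not overlap. ENPP2 and CRYBG1 were picked after their values were seen.

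INHBA had the most sites, 7 in all. Of these, 6 ended 71 to 579 bases before the end of the gene and 1 ended 3540 bases before it. Over the 7 sites the log2 fold over IgG ran from 2.87 to 5.68 in MOLM13 replicate 1 and from 4.48 to 5.36 in replicate 2. The replicate 2 range uses the highest overlapping cluster. At the site 3540 bases before the end, that was 4.55, while a second overlapping cluster, which covers most of the site, had 2.21. THP1 replicate 1 had clusters at 6 of the sites with −0.74 to 0.49, and replicate 2 had clusters at 3 with 0.70. MOLM13 therefore lay above THP1 at every INHBA site that had THP1 values, and THP1 had clusters at the same places close to the IgG level. PTPN3 had 3 sites, of which 2 touch and 1 lies 2646 bases before the end. The third had 3.24 and 3.92 over IgG in MOLM13 and no THP1 cluster.

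**Figure D5:**
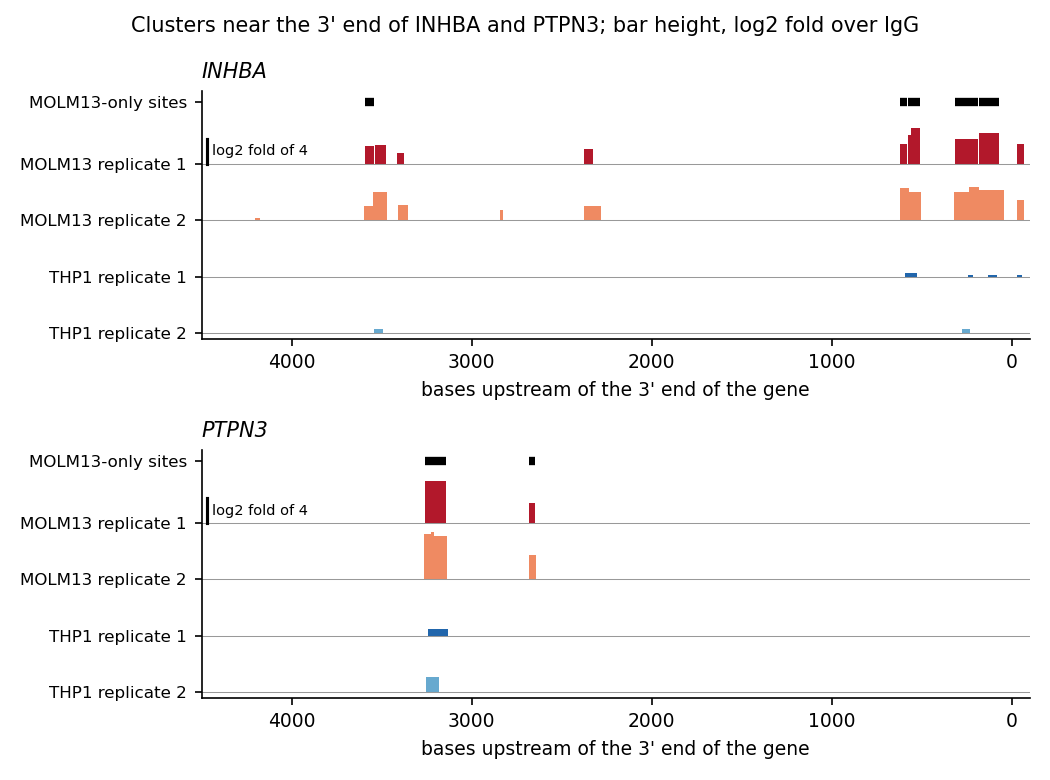
Clusters of the 4 IgG lists along the last part of INHBA and PTPN3, by distance in bases from the 3' end of the gene (x axis), with bar height for the log2 fold over IgG (scale bar, 4) and black marks for the MOLM13-only sites; clusters below 0 are drawn as thin bars. In both genes the THP1 clusters sit under the MOLM13 clusters at lower folds.

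Genes of 10 pathway lists were then counted among the 1402 genes with a reproducible MOLM13 3' UTR site, of which 255 (18.2%) had a MOLM13-only site. In the cell cycle list it was 9 of 19 genes (47.4%): the kinases CDK1 and PLK1, the cyclins CCNB1 and CCNE2, the inhibitor CDKN2D, the pocket proteins RB1 and RBL1 and the E2F factors E2F2 and E2F7. Counted over genes with clusters in both MOLM13 replicates, the share was 8 of 28 (28.6%) against 195 of 8388 (2.32%). None of the 9 genes also had a site shared with both THP1 tables, while 8 genes of the list had such a shared site. The list counts were not tested, and the members were chosen with results known.

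Most cell cycle sites were moderate. CDKN2D, an inhibitor of CDK4 and CDK6, had 4.14 and 4.46 over input. Over IgG it had 1.57 and 1.52 in MOLM13 against 1.49 and 1.96 in THP1, so the lines overlapped. RBL1 likewise had 2.00 and 2.08 against 2.07 and 2.28. The mitotic cyclin gene CCNB1 had 2.91 and 1.99 in MOLM13 against 2.26 and 0.84 in THP1, also with overlap. E2F7, a repressor of E2F targets, did not overlap, with 1.87 and 2.69 in MOLM13 and 0.00 and 0.96 in THP1. Of the 11 sites in these genes, 10 had values in all 4 lists: MOLM13 lay above THP1 at 5 of them, THP1 above at 1, in CDK1, and the lines overlapped at 4.

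The output of FLT3, JAK-STAT5 and RAS signalling gave 4 of 10 genes (40.0%): CISH, PIM1, MYC and SPRY1. SPRY1, a feedback inhibitor of RAS signalling, had 4.97 and 4.25 over input, 2.98 and 2.89 over IgG in MOLM13, −0.74 in THP1 replicate 1 and no cluster in THP1 replicate 2. The gene had only 1 and 2 clusters in MOLM13 and 1 and 0 in THP1, so clusters on it were few in either line. CISH and PIM1 are the genes described above whose 3' UTR also has a site shared with THP1. The FLT3 list is small, and MYC and PIM1 also stand in the list of reported ZFP36-family targets, where 2 of 18 genes (11.1%) had a MOLM13-only site and 17 had a site shared with both THP1 tables.

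In the TGF-beta and activin list, 2 of 11 genes (18.2%) had a MOLM13-only site. INHBA, its ligand subunit, accounted for 7 of the 8 sites. TGIF1, a corepressor of SMAD factors, had 5.24 and 4.28 over input but 2.67 and 1.92 over IgG in MOLM13 against 3.0 and 2.55 in THP1, with overlap. Of 12 genes of myeloid transcription factors and the KMT2A fusion programme, 2 (16.7%) had a site, HOXA7 and the AP-1 factor gene JUNB. JUNB had 3.17 and 3.44 over input. Over IgG it had 3.51 and 4.09 in MOLM13, with 2.68 in THP1 replicate 1 and no cluster in THP1 replicate 2, and its 3' UTR also had a site that both THP1 tables share.

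Among mRNA decay and AU-rich binding proteins, CNOT8, a catalytic subunit of the CCR4-NOT deadenylase that the TIS11 family recruits, was the single gene of 13 (7.69%). Its site had 3.33 and 3.26 over input. Over IgG, MOLM13 had 4.34 and 3.91, against 2.72 and 1.55 in THP1, without overlap. Nuclear genes for mitochondrial proteins gave 2 of 9 (22.2%), TIMM10 and TFAM, the packaging factor of mitochondrial DNA. TFAM had 3.32 and 3.10 over input. Over IgG it had 3.65 and 2.01 in MOLM13 against 2.14 and 1.92 in THP1, so the lines overlapped. No gene of the apoptosis list (0 of 8) or of the cytokine and NF-kB list (0 of 5) had a MOLM13-only site. The monocyte maturation list had no reproducible MOLM13 3' UTR site at all.

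A few sites were enriched over input but not over IgG. CRIM1, a transmembrane protein that binds bone morphogenetic proteins, had 4.77 and 3.15 over input in MOLM13, but −0.38 and −1.85 over IgG, and −3.40 and −2.68 in THP1. It was also the 1 gene of the 255 with at least 3 times as many clusters in THP1 as in MOLM13, 19 and 23 against 1 and 2. The deubiquitinase gene OTUD7B had 4.59 and 3.76 over input, but 0.44 and −0.77 over IgG, with −2.97 and −2.53 in THP1. These were the lowest sites of the set over IgG: in MOLM13, 1 of the 292 sites, in CRIM1, was below 0 in replicate 1, and CRIM1 and OTUD7B made up the 2 below 0 in replicate 2.

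The same rule with the lines exchanged gave 386 THP1-only 3' UTR sites in 314 genes. Both MOLM13 IgG lists had a cluster at 275 of them (71.2%) and neither at 71 (18.4%). The median log2 fold over IgG in MOLM13 at these sites was 2.07 and 1.75 in replicates 1 and 2, beside 1.89 and 2.16 for THP1 at the MOLM13-only sites. In both directions, most sites found in the input tables of one line only had a cluster at the same place in both IgG lists of the other.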

How the data were processed

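ZFP36L2 eCLIP libraries of MOLM13 and THP1 were compared as the authors' clusters. Per the submitters' processing notes, the tools were edgeR, STAR 2.5.0c, Picard 2.6.0 and cutadapt 1.14, and hg38, hg19 and GRCh37 were named as builds, without their roles. For the cluster caller, the name was not given in the sources used here. The authors deposited, per immunoprecipitate, a log2 fold over input or IgG and a −log10 p for each cluster, on hg38 contigs. The deposited −log10 p is capped at 400. The authors called clusters in each replicate by itself, as the separate lists show. The THP1 IgG lists were tied to the replicates by identical coordinates. It is not stated whether both THP1 tables rest on the 1 THP1 input.

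Members were found by overlap of at least 1 base on the same strand (Python 3.11.15, pandas 2.3.3, numpy 2.4.6), an overlap routine tested on simulated data. For MOLM13 replicate 1 over IgG, the cluster with the site's own coordinates was taken, which existed at 291 of the 292 sites. In the other lists, the highest fold was taken where several clusters met a site. Clusters were assigned to genes by the RefSeq coordinates of GRCh38.p14. Gene names of the sites matched a current symbol at 282 sites, an older one at 8 and part of a joined name at 2. The authors' folds describe and rank peaks, and no difference was tested. Intervals are Wilson intervals at 95%.

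Members and lists were chosen with earlier results of these data known. Named were the 12 genes with the highest site by the lower fold over input, up to 6 of the highest in each of 3 classes (THP1 clusters at the site in both lists, on the gene only, or nowhere on the gene), the 6 with most sites, up to 4 per pathway list, the 3 sites nearest the fold threshold and the 3 nearest the rule's edge, and the 3 sites with the lowest and the 3 with the highest THP1 fold over IgG. Alternatives varied the overlap, the fold, the base list, the distance to THP1 peaks, the IgG filter and the libraries. Site sequences and AU-rich motifs are not analysed here.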

Additional observations from a re-analysis of the deposited data

Results flagged for a closer look

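At the site in PRDM8, a gene of the PRDM family of zinc finger proteins, the lines lay on opposite sides of the IgG level: the log2 fold over IgG was 3.16 and 2.31 in MOLM13 against −0.74 and −0.04 in THP1. By sign, every MOLM13 replicate was above IgG and every THP1 replicate below it, although THP1 replicate 2 lay close to IgG at −0.04. Both THP1 values recurred in other genes, −0.74 at sites of INHBA and SPRY1 and −0.04 at a PTPN3 cluster. The read numbers behind them are unknown, so the sign alone carries little weight. PRDM8 was the single one of the 234 sites with 4 values where this held. The site was called over IgG in neither MOLM13 replicate, with a deposited −log10 p of 2.04 and 0.935. The difference was not tested. The gene had 2 clusters in each MOLM13 replicate and 2 and 1 in THP1, so clusters on it were few in either line.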

How the results depend on the processing

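Of 71 values under other settings, 44 stayed within 1.5 times the reported count, inside its interval, or within the standard deviation of the 2 replicate medians (0.189), and 27 moved. A log2 fold of at least 4 in both MOLM13 replicates left 59 sites, with THP1 clusters in both lists at 61.0%, elsewhere on the gene at 11.9% and nowhere on the gene at 5.08%, calls over IgG in both MOLM13 replicates at 49.2%, THP1 medians over IgG of 1.31 and 1.96, a gene named in both THP1 tables at 33.9%, and 2 cell cycle genes. Requiring calls over IgG in both MOLM13 replicates left 75 sites. Of these, 72.0% had clusters in both THP1 lists and 30.7% had a gene named in both THP1 tables. At the 54 with a value in all 4 lists, MOLM13 lay above THP1 at 83.3% and THP1 above at 1.85%. This filter keeps high MOLM13 folds over IgG, the same folds that are then ordered, so nothing is read from these shares. With no THP1 peak within 100 bases, 84.6% had clusters in both THP1 lists and 3.94% elsewhere on the gene only. Counting THP1 clusters within 50 bases gave 86.0% and 4.11%. Centring each IgG list on its median, chosen after seeing the data, put MOLM13 above at 63.2% and THP1 above at 1.28%. Leaving out 1 library gave 444 to 715 sites: 458 without THP1 replicate 1, 444 without THP1 replicate 2, 715 without MOLM13 replicate 1 and 691 without MOLM13 replicate 2. The share with THP1 clusters then ran from 80.7% to 91.0% (a single list counts where a THP1 replicate is left out), the THP1 median from 1.77 to 2.07 in replicate 1 and from 2.08 to 2.46 in replicate 2, and cell cycle genes from 10 to 13. Leaving out 1 library drops a condition of the rule, so the higher site counts follow from the rule itself. The cause of the other shifts was not tested. No paired analysis was made, because the labels pair no MOLM13 replicate with a THP1 replicate. The motif alternatives were not run. Depth per library is unknown, so a missing THP1 cluster sets no upper bound on binding, and 2 libraries per line limit every comparison.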

Other observations

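Several further genes, picked here after their values were seen, separated the lines over IgG at the site. BCL7A, a subunit of SWI/SNF chromatin remodellers, had log2 folds over IgG of 5.45 and 5.0 in MOLM13 against 0.77 and −0.04 in THP1. The adaptor protein SAMSN1 had 4.34 and 2.94 against −0.32 and 0.96. PTGER2, a receptor of prostaglandin E2, had 4.31 and 3.13 against 0.85 and −0.04. GAS6, the ligand of the receptor kinase AXL, had 2.48 and 3.53 against 0.00 and 0.38, with 43 and 34 clusters on the gene in MOLM13 but 4 and 3 in THP1.

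In other genes, also picked after their values were seen, the order was turned. At a site of the RNA helicase gene DDX5, THP1 had 3.87 and 4.06 over IgG against 3.32 and 3.19 in MOLM13, although no THP1 peak over input met the site. MAGOHB, a core protein of the exon junction complex, had 3.26 and 3.66 in THP1 against 2.06 and 2.67, and CHIC2 had 3.70 and 3.66 against 1.38 and 2.31. Clusters on these 3 genes were of like number in both lines for DDX5 (13 and 12 in MOLM13, 10 and 13 in THP1) and for MAGOHB (5 and 2, 5 and 3), and 8 and 14 against 17 and 20 for CHIC2. None of these differences was tested.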
